A study of Sus scrofa with 9 samples.

Results

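A set of 6 genes of the unfolded protein response and the integrated stress response was followed in porcine hearts procured after circulatory death. Its members were taken by gene name from the 25149 genes of the expression table, where 6 of 10 named genes were found: HSPA5, XBP1, ATF6, ATF4, PPP1R15A and ASNS. The other 4 (DDIT3, HERPUD1, TRIB3 and CHAC1) were not matched by name and were left out. The rule used names, not measured values. All 6 passed the filter for testing, 1 TPM or more in 3 or more of the 9 hearts, and so did 11782 genes in all.

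RNA was sequenced from apex biopsies of 9 female American Yorkshire pigs aged 4 to 6 months, 1 heart per pig and 3 hearts per group. Every donor underwent 15 min of warm ischemia, and every heart was finally reanimated for 2 h by normothermic machine perfusion (NMP) on a circuit primed with pig blood, so each value describes tissue after warm reperfusion. In NRP + SCS 2 h (pigs 24, 25 and 29), blood was recirculated through the donor for 60 min before procurement (normothermic regional perfusion, NRP), and the heart then lay in static cold storage (SCS) at 4 °C for 2 h. In NRP + HOPE 24 h (pigs 27, 28 and 30), the same 60 min of NRP preceded 24 h of hypothermic oxygenated perfusion (HOPE) at 8 °C, in which cold oxygenated solution is pumped through the coronary vessels. In No NRP + HOPE 2 h (pigs 31, 33 and 34), the heart was procured directly and kept in HOPE at 8 °C for 2 h. Storage method and temperature changed together between SCS and HOPE, with storage time or NRP as well, so their parts cannot be told apart. No unstored or uninjured heart was among the samples.

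The labels name cardiomyocytes as the cell type, but the biopsies also held transcripts of other cells. The summed level of 7 cardiomyocyte markers was 18621 to 33656 TPM, that of 6 endothelial markers 246 to 524 TPM, of 5 fibroblast markers 669 to 1150 TPM, and of 7 leukocyte markers 23.1 to 69.5 TPM. The smooth muscle and pericyte sum was 192 to 440 TPM over 5 markers, of which MYH11 was listed at 0 in every heart. The 13 mitochondrially encoded protein genes took 38.2% to 55.3% of all TPM. In such bulk tissue, fewer cells of a type and less RNA per cell cannot be told apart.

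Proteins that misfold in the endoplasmic reticulum (ER) are sensed by the membrane proteins IRE1 (gene ERN1), PERK (EIF2AK3) and ATF6. IRE1 splices the XBP1 mRNA, ATF6 is cut to release a transcription factor, and both lead to transcription of ER chaperones such as HSPA5 (BiP). PERK and its sister kinases, which sense amino acid shortage, heme deficiency or double-stranded RNA, phosphorylate the initiation factor eIF2. This slows protein synthesis while favoring translation of the ATF4 mRNA, the step that defines the integrated stress response (ISR). ATF4 protein then induces genes of amino acid supply, such as asparagine synthetase (ASNS), and PPP1R15A (GADD34) brings a phosphatase to eIF2 and closes the loop. In the heart the pathway is known from ischemia and reperfusion. Splicing of XBP1, cleavage of ATF6 and translation of ATF4 are not read by gene-level mRNA values.

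TPM corrects each read count for the length of the gene and sums to the same total in every heart, so levels can be compared between genes. The 6 genes fell into an abundant and a scarce set. ATF4 stood highest with a mean of 815 TPM over the 9 hearts, followed by HSPA5 (208 TPM), XBP1 (143 TPM) and PPP1R15A (115 TPM). ASNS (11.2 TPM) and ATF6 (8.24 TPM) were far below. ATF4 exceeded HSPA5 in 9 of 9 hearts and PPP1R15A exceeded ASNS in 9 of 9, in both cases with no overlap of the ranges. The other neighbors overlapped: HSPA5 was above XBP1 in 8 of 9 hearts, XBP1 above PPP1R15A in 5 of 9, and ASNS above ATF6 in 7 of 9.

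ATF4 was also the steadiest of the 6. Its coefficient of variation over the 9 hearts (CV, the SD as a percent of the mean) was 12.8%, and only 88 of 11782 genes (0.747%) had a lower one, against a median CV of 36.0% over all genes. High expression goes with a low CV, but among the 665 genes with a mean of at least 100 TPM, whose median CV was 23.8%, 9.47% were steadier than ATF4. The CV was 23.4% for XBP1, 28.1% for HSPA5 and 31.1% for PPP1R15A. It was 38.9% for ATF6 and 58.4% for ASNS, whose highest heart had 6.81 times the level of its lowest.

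The ER chaperone HSPA5, which binds unfolded proteins and holds the stress sensors inactive, had 182, 191 and 162 TPM in the NRP + SCS 2 h hearts (pigs 24, 25 and 29). It had 149, 301 and 295 TPM in NRP + HOPE 24 h (pigs 27, 28 and 30). In No NRP + HOPE 2 h (pigs 31, 33 and 34) it had 166, 251 and 178 TPM. Pigs 28 and 30 were the highest 2 of the 9 hearts, but pig 27 of the same group was the lowest, so the groups overlapped. HSPA5 averaged 248 ± 86.2 TPM (SD, n = 3) after NRP + HOPE 24 h and 178 ± 14.8 TPM after NRP + SCS 2 h.

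XBP1, the transcription factor of the IRE1 branch, had 165, 146 and 200 TPM in NRP + SCS 2 h. The values were 94.8, 142 and 150 TPM in NRP + HOPE 24 h, and 93.5, 163 and 136 TPM in No NRP + HOPE 2 h. Pig 29 of the SCS group had the highest level and pigs 27 and 31 the lowest 2, and the SCS range reached into both HOPE groups. The mean was 170 ± 27.4 TPM after SCS, 129 ± 29.8 TPM after 24 h of HOPE and 131 ± 35.2 TPM after 2 h of HOPE.

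ATF6, the sensor that becomes a transcription factor when cut in the Golgi, was scarce. It had 12.7, 7.00 and 6.33 TPM in NRP + SCS 2 h, 6.80, 10.7 and 12.9 TPM in NRP + HOPE 24 h, and 3.21, 7.44 and 7.08 TPM in No NRP + HOPE 2 h. Pig 31 was the lowest, and pigs 24 and 30 the highest 2, in different groups. The means were 8.68 ± 3.50, 10.1 ± 3.08 and 5.91 ± 2.35 TPM in the same order.

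On the ISR side, ATF4 had 883, 805 and 847 TPM in NRP + SCS 2 h, 665, 975 and 800 TPM in NRP + HOPE 24 h, and 667, 914 and 774 TPM in No NRP + HOPE 2 h. The SCS values lay inside the range of each HOPE group. PPP1R15A had 98.5, 115 and 73.8 TPM in NRP + SCS 2 h, 110, 157 and 99.6 TPM in NRP + HOPE 24 h, and 96.5, 93.0 and 188 TPM in No NRP + HOPE 2 h. Its highest heart was pig 34 and its next highest pig 28, each standing above the other hearts of its own group.

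ASNS, which makes asparagine from aspartate and is a classical target of ATF4, spread most within a group. It had 27.1, 10.4 and 3.98 TPM in NRP + SCS 2 h, so that the highest and the lowest of the 9 hearts were both SCS hearts (pigs 24 and 29). The values were 8.42, 12.5 and 12.2 TPM in NRP + HOPE 24 h and 6.98, 11.4 and 8.12 TPM in No NRP + HOPE 2 h. The means were 13.8 ± 11.9 TPM after SCS, 11.0 ± 2.25 TPM after 24 h of HOPE and 8.83 ± 2.28 TPM after 2 h of HOPE.

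**Figure D1:**
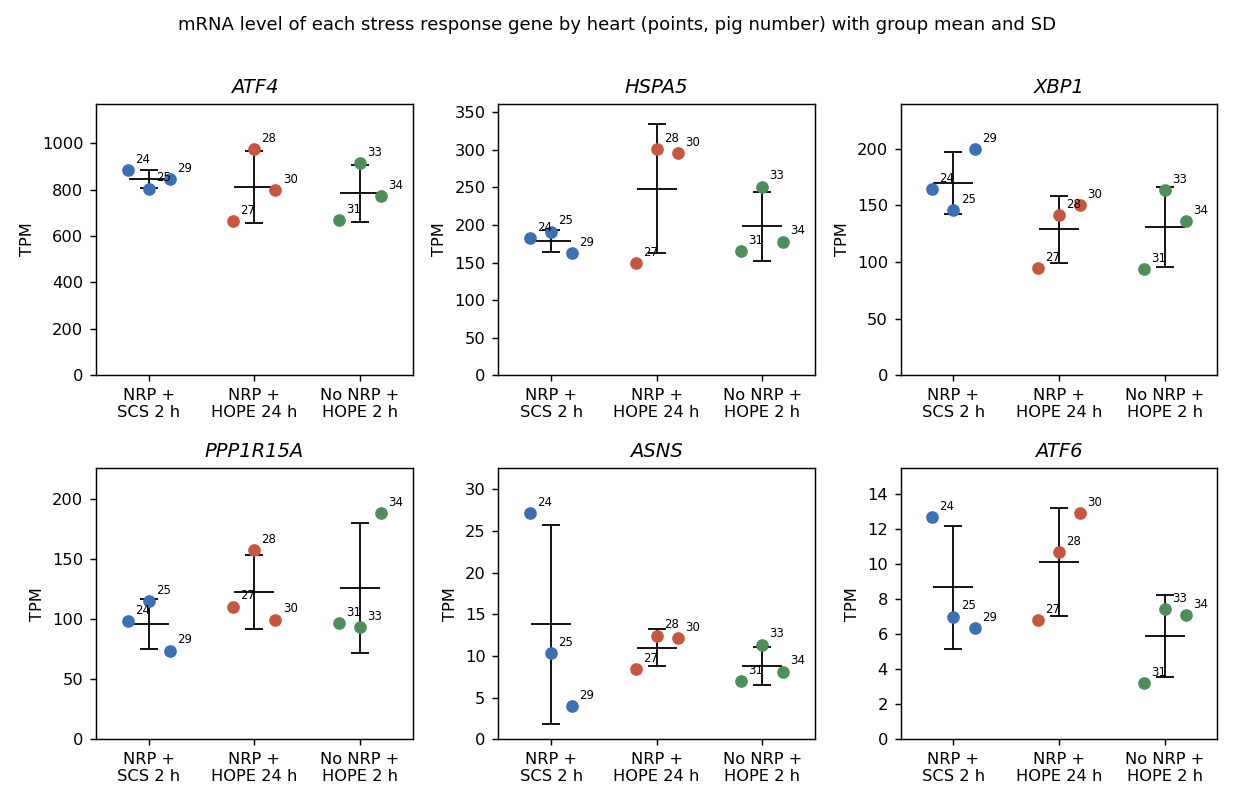
Level of each of the 6 genes in TPM (vertical axis, from 0) by group, 1 point per heart with its pig number; the bar is the group mean and the whiskers the SD (n = 3). The groups overlap in every panel, and pigs 27 and 31 are the lowest hearts of their groups for all genes but PPP1R15A.

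The lowest hearts recurred across these genes. Pig 27 was the lowest heart of its group for 5 of the 6 genes and pig 31 the lowest of its group for the same 5, all but PPP1R15A. Of all genes tested, 66.2% were lowest in pig 27 within its group and 68.5% were lowest in pig 31 within its group, so the low values of these hearts extended well beyond the stress response. Pigs 27 and 31 also had the highest 2 mitochondrial shares (55.3% and 55.0%), the lowest 2 endothelial marker sums (246 and 250 TPM, against 396 to 524 TPM elsewhere) and the lowest 2 leukocyte sums (23.1 and 31.4 TPM, against 56.4 to 69.5 TPM). Their part in the levels of the 6 genes was not tested.

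The first comparison asked whether 24 h of HOPE left a different transcript level from 2 h of SCS after NRP. None of the 6 genes differed beyond the spread between hearts. HSPA5 had a log2 fold change of 0.41 (standard error 0.30, 95% interval -0.24 to 1.05, adjusted p = 0.993) and PPP1R15A one of 0.35 (interval -0.35 to 1.04). XBP1 went the other way with -0.41 (interval -1.03 to 0.21). ATF6 had 0.22, ASNS 0.02 and ATF4 -0.07 (interval -0.55 to 0.41). Fold changes are for the first-named group over the second on the log2(TPM + 1) scale, which understates the change of scarce genes, and adjusted p are from limma with Benjamini-Hochberg adjustment over all genes.

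The call rule was an absolute log2 fold change above 1 together with an adjusted p below 0.05. In this comparison limma called 0 of the 6, beside 0.0255% of all genes. At an unadjusted p under 0.05 there were again 0 of 6, beside 4.97% of all genes (1.82% higher, 3.14% lower), and 0 of 6 had groups without overlap, beside 9.82%. The median log2 fold change was 0.12 over the 6 genes and -0.12 over all genes tested, and neither kept its sign with every heart left out in turn (-0.0118 to 0.40 over the 6, -0.31 to 0.04 over all). With median-of-ratios scaling, which sets a factor per heart from genes above 0 in every heart, the median over all genes moved to 0.0003 and HSPA5 passed the unadjusted threshold with a log2 fold change of 0.56 (adjusted p = 0.549). Without pig 27 HSPA5 also passed it, at 0.74 (adjusted p = 0.698).

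The second comparison, No NRP + HOPE 2 h versus NRP + SCS 2 h, set direct procurement against NRP after short storage. Storage method and temperature changed with it. The same SCS hearts served as its reference, so the results are not independent of the first. ATF6 had a log2 fold change of -0.50 (standard error 0.38, interval -1.31 to 0.32), XBP1 of -0.40 (interval -1.02 to 0.22) and ASNS of -0.28. PPP1R15A had 0.33, HSPA5 0.13 and ATF4 -0.12 (interval -0.60 to 0.37). The smallest adjusted p among the 6 was 0.841, for XBP1. Limma called 0 of 6 beside 0.0509% of all genes, 0 of 6 reached an unadjusted p under 0.05 beside 7.22% (2.57% higher, 4.65% lower), and 0 of 6 were without overlap beside 14.7%. The median was -0.20 over the 6 genes and -0.07 over all, and neither kept its sign with every heart left out in turn (-0.34 to 0.03 over the 6, -0.18 to 0.06 over all).

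The third comparison set the HOPE groups side by side, with NRP and 24 h against neither NRP nor long storage, and shares its hearts with the other comparisons. ATF6 had the largest log2 fold change of the 6, 0.71 (standard error 0.38, interval -0.10 to 1.53, adjusted p = 0.857), with 10.1 against 5.91 TPM. It passed the unadjusted threshold with median-of-ratios scaling (0.76, adjusted p = 0.345), and without pig 27 both ATF6 (0.95) and HSPA5 (0.61) did, each at an adjusted p of 0.551. ASNS had 0.30 and HSPA5 0.28 (interval -0.37 to 0.92). ATF4 (0.05), PPP1R15A (0.01) and XBP1 (-0.01) lay near 0, with intervals reaching 0.53, 0.70 and -0.63. Limma called 0 of 6, beside 0.0509% of all genes. Again 0 of 6 reached an unadjusted p under 0.05 beside 6.01% (2.78% higher, 3.23% lower), and 0 of 6 were without overlap beside 7.48%. The median was 0.16 over the 6 genes (0.0054 to 0.33 with a heart left out) and -0.03 over all (-0.23 to 0.12).

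**Figure D2:**
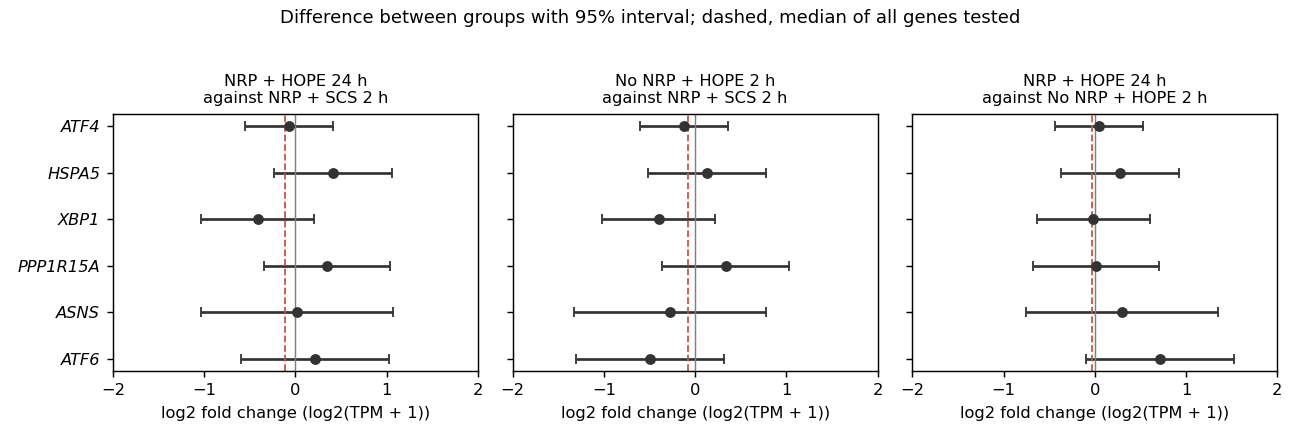
Log2 fold change of each gene (horizontal axis, on log2(TPM + 1)) in the 3 comparisons, with its 95% interval from limma; the dashed line is the median of all 11782 genes tested. Every interval includes 0, and the narrowest are those of ATF4.

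Exact permutation tests of the mean TPM, two-sided and 3 hearts against 3, gave no p under 0.2 for any of the 6 genes in any comparison, where the smallest p the design allows is 0.1. For HSPA5 after NRP + HOPE 24 h versus NRP + SCS 2 h, the ratio of means was 1.39 (exact permutation p = 0.4), and for XBP1 it was 0.758 (exact permutation p = 0.2). The intervals above show what the design could not resolve. For ATF4 they reach no further than 0.60 on the log2 scale in either direction, each interval taken singly and in the main fit. For each of the other 5 genes at least 1 interval reaches beyond 1 in size.

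HSPA5 and XBP1 lay on opposite sides of 0 in the first comparison, so their ratio within each heart, which no scaling per heart can alter, was examined after these values were seen. The ratio of HSPA5 to XBP1 was 1.11, 1.31 and 0.812 in NRP + SCS 2 h. It was 1.57, 2.12 and 1.97 in NRP + HOPE 24 h and 1.77, 1.54 and 1.31 in No NRP + HOPE 2 h. Every NRP + HOPE 24 h heart, the low pig 27 included, was above every SCS heart, with means of 1.89 ± 0.286 and 1.08 ± 0.251 (exact permutation p = 0.1, the smallest possible). No NRP + HOPE 2 h touched the SCS range (1.54 ± 0.233, exact permutation p = 0.2). It was picked because its genes lay on opposite sides of 0, and was the only 1 of 15 pairs among the 6 genes without overlap in that comparison. Over all pairs of the 10994 tested genes above 0 in every heart, 15.1% had ratios without overlap, so the 6 genes held no more such pairs than genes at large.

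In No NRP + HOPE 2 h versus NRP + SCS 2 h the pair without overlap was ATF4 to XBP1 (6.14 ± 0.866 against 5.04 ± 0.699, exact permutation p = 0.1), again 1 of 15, beside 18.0% of all pairs. Between the HOPE groups, 4 of the 15 pairs were without overlap, beside 16.9% of all pairs, each at an exact permutation p of 0.1. XBP1 to ATF6 was 13.0 ± 1.19 with NRP + HOPE 24 h and 23.4 ± 5.14 with No NRP + HOPE 2 h, and ATF4 to ATF6 was 83.8 ± 19.1 and 147 ± 53.6. ATF4 to ASNS was 74.3 ± 7.38 and 90.4 ± 8.71, and XBP1 to ASNS 11.7 ± 0.604 and 14.8 ± 1.73. Pairs share genes and are not independent, so nothing further is read from these counts.

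In all, 3 pairs linked by known regulation were followed across the 9 hearts on the log2 scale. HSPA5 and ATF6 had a Spearman rho of 0.77 (permutation p = 0.0214, 0.0642 after adjustment over the 3 pairs) and a Pearson r of 0.60 (permutation p = 0.0900, adjusted 0.270). Without pigs 28 and 30, the hearts farthest from the median of HSPA5, r was 0.26 and rho 0.68, so the linear relation rested on these hearts and the rank order did so less. With median-of-ratios scaling r was 0.39 (permutation p = 0.305). After subtraction of the group means r was 0.65. HSPA5 and XBP1 had r = 0.32 (permutation p = 0.398) and rho = 0.22 (permutation p = 0.581), with r = 0.44 without pigs 28 and 30 and 0.73 after subtraction of the group means. ATF4 and ASNS had r = 0.40 (permutation p = 0.288) and rho = 0.57 (permutation p = 0.121), with r = 0.39 without pigs 27 and 28 and 0.38 after the group means were removed. No relation passed adjustment over the 3 pairs.

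As a description, the genes whose log2 level followed HSPA5 most closely over the 9 hearts, of 7639 with a symbol, were ETS1 (r = 0.94), C15orf48, CD53, SMPDL3B and CDC42BPG (r = 0.93 for each). Those closest to ATF4 were METTL13 (r = 0.93), NUP50, SUCO and MAT2A (r = 0.91 for each), and MAN1A1. MAT2A makes the methyl donor S-adenosylmethionine, and CD53 is a leukocyte surface protein. All of these are the top of a search over 7639 genes in 9 hearts, where high values of r arise easily. CDC42BPG was near the floor, with a mean of 0.821 TPM.

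The rest of the pathway was read from 7 lists with 96 genes beyond the 6, of which 77 were matched in the table. No gene of these lists was called in any comparison. Among 8 sensors and processing factors, 0 reached an unadjusted p under 0.05 in any comparison, beside 4.97%, 7.22% and 6.01% of all genes in turn. All 8 had a negative log2 fold change in No NRP + HOPE 2 h versus NRP + SCS 2 h (median -0.26), where 57.7% of all genes tested were negative with a median of -0.07. ERN1, which encodes the IRE1 sensor that splices XBP1, had 17.9, 11.6 and 14.4 TPM in NRP + SCS 2 h and 5.06, 7.77 and 7.96 TPM in NRP + HOPE 24 h, without overlap (log2 fold change -0.98, interval -1.97 to 0.004, adjusted p = 0.993). In No NRP + HOPE 2 h it had 4.22, 10.8 and 23.7 TPM, which spanned both other groups. In NRP + HOPE 24 h versus NRP + SCS 2 h, where ERN1 and XBP1 had negative values, all 6 endothelial markers (median -0.47, TEK and CLEC14A without overlap) and all 4 tested smooth muscle and pericyte markers (median -0.40) were negative too, where 64.1% of all genes were negative and 9.82% were without overlap. All 5 fibroblast markers were positive (median 0.11). Of 7 cardiomyocyte markers 5 were negative (median -0.26), and of 6 tested leukocyte markers 3 were negative and 3 positive (median -0.03). The part of these cells was not tested. EIF2AK3, the PERK sensor, had log2 fold change -0.44 in No NRP + HOPE 2 h versus NRP + SCS 2 h, and CREB3L1, a membrane-bound relative of ATF6, had 0.62 between the HOPE groups.

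Of 14 ER chaperones and folding enzymes tested, 2 reached an unadjusted p under 0.05, both between NRP + HOPE 24 h and No NRP + HOPE 2 h and in opposite directions, beside 2.78% of all genes higher and 3.23% lower. DNAJB9, a cochaperone of HSPA5, had a log2 fold change of 0.70 (interval 0.02 to 1.37), and CRELD2, a secreted ER stress protein, had -0.78 (interval -1.51 to -0.06). The adjusted p from limma were 0.826 and 0.804. ERO1A, the oxidase that drives disulfide formation, had -0.67 in NRP + HOPE 24 h versus NRP + SCS 2 h. The medians of the list stayed between -0.10 and -0.01 in the 3 comparisons. Of 10 genes of ER-associated degradation, 0 reached an unadjusted p under 0.05 in any comparison. Over all genes that share was 4.97%, 7.22% and 6.01% in turn. Among the 3 genes of this list with the smallest p, the largest difference was -0.49, for EDEM2 between the HOPE groups. EDEM3 had 0.47 and HERPUD2 had -0.34 in the same comparison.

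Of 9 genes for eIF2, its kinases and its exchange factor, 1 reached an unadjusted p under 0.05 in any of the 3 comparisons, beside 6.01% of all genes in the comparison concerned. EIF2AK2 (PKR), the kinase that senses double-stranded RNA, had a log2 fold change of -1.13 in NRP + HOPE 24 h versus No NRP + HOPE 2 h (adjusted p = 0.829). That difference came with a single heart: pig 34 had 29.1 TPM, and the other 8 hearts had 2.04 to 7.20 TPM. DNAJC3, an inhibitor of eIF2 kinases, had -0.55 and EIF2S2, the beta subunit of eIF2, had -0.42, both in No NRP + HOPE 2 h versus NRP + SCS 2 h.

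**Figure D3:**
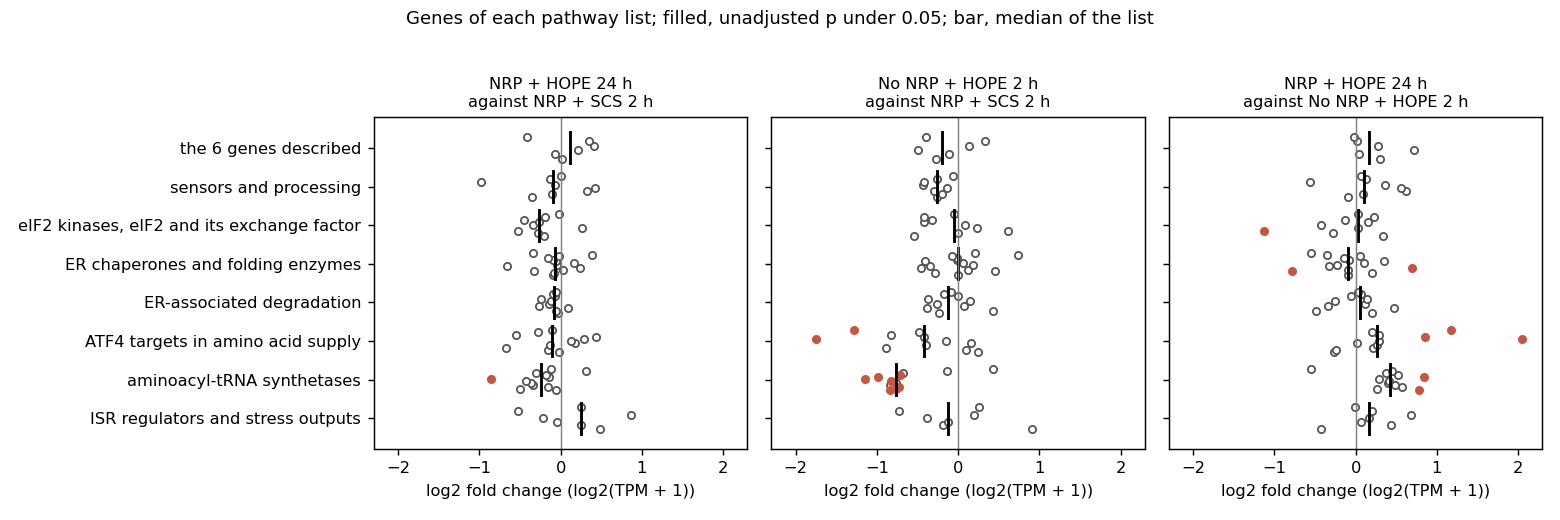
Log2 fold change (horizontal axis, on log2(TPM + 1)) of every tested gene of the 6-gene set and 7 further lists, in the 3 comparisons; filled points had an unadjusted p under 0.05 and the bar marks the median of a list. In the middle panel 7 synthetases and 2 amino acid supply genes are filled, all to the left of 0, and no gene was called after adjustment.

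The genes of amino acid supply and tRNA charging include many known targets of ATF4. Of 11 tested amino acid supply genes, 2 were lower at an unadjusted p under 0.05 in No NRP + HOPE 2 h versus NRP + SCS 2 h (background 4.65%), and 3 were higher in NRP + HOPE 24 h versus No NRP + HOPE 2 h (background 2.78%). Their medians were -0.42 and 0.26. In NRP + HOPE 24 h versus NRP + SCS 2 h it was 0 of 11, beside 4.97%, with a median of -0.11. Fibroblast markers had 4 of 5 positive in No NRP + HOPE 2 h versus NRP + SCS 2 h (median 0.27), with 2 of 5 without overlap beside 14.7%. Smooth muscle and pericyte markers had 3 of 4 positive there (median 0.39). Between the HOPE groups, all 4 tested smooth muscle and pericyte markers were lower with NRP + HOPE 24 h (median -0.77), 2 of them at an unadjusted p under 0.05 beside 3.23%. Among them ACTA2 had a log2 fold change of -1.28 without overlap (adjusted p = 0.402, limma), and the part of these cells was not tested.

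SESN2 (sestrin 2), which restrains the growth kinase mTORC1 when leucine is short, had 28.7, 17.5 and 13.3 TPM in NRP + SCS 2 h. It had 20.5, 29.9 and 20.5 TPM in NRP + HOPE 24 h, but 2.71, 8.63 and 4.69 TPM in No NRP + HOPE 2 h. All 3 hearts without NRP were below all 6 hearts with NRP. Of all genes, 14.7% were without overlap in No NRP + HOPE 2 h versus NRP + SCS 2 h and 7.48% between the HOPE groups. The share for 3 hearts against 6 was not computed. SESN2 had the smallest unadjusted p of its list, the ground on which it was named. The log2 fold change was -1.76 for No NRP + HOPE 2 h versus NRP + SCS 2 h (standard error 0.39, adjusted p = 0.162) and 2.04 for NRP + HOPE 24 h versus No NRP + HOPE 2 h (standard error 0.39, adjusted p = 0.140). Neither passed adjustment over all genes. With a heart left out, the adjusted p ran from 0.0821 to 0.716 in the first and from 0.0321 to 0.571 in the second, which passed only without pig 33 (2.40). Absence of NRP was joined to the storage method in one contrast and to storage time in the other.

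SLC7A1, a transporter of arginine and lysine, averaged 20.5 ± 9.07 TPM in NRP + SCS 2 h, 18.2 ± 6.39 TPM in NRP + HOPE 24 h and 7.61 ± 3.31 TPM in No NRP + HOPE 2 h. Its log2 fold change was -1.28 for the third group against the first (adjusted p = 0.483) and 1.18 for the second against the third (adjusted p = 0.619). SLC1A5, a glutamine transporter, had 0.85 in the latter comparison (adjusted p = 0.743). SLC7A11, the cystine transporter, was listed at 0 in all 9 hearts.

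Aminoacyl-tRNA synthetases are the enzymes that load amino acids onto tRNA. The list held 12 of them, not the whole family, and all 12 were in the table. In No NRP + HOPE 2 h versus NRP + SCS 2 h, 11 of 12 had a negative log2 fold change, beside 57.7% of all genes, and 7 of 12 were lower at an unadjusted p under 0.05, beside 4.65% of all genes. The median was -0.76, against -0.07 for all genes. The groups did not overlap for 5 of 12, beside 14.7%, and 0 of 12 passed adjustment (smallest adjusted p = 0.500, limma). MARS1 had the smallest p, with 16.4 ± 7.34 against 6.58 ± 1.97 TPM (log2 fold change -1.15), followed by NARS1 with 120 ± 38.0 against 59.8 ± 18.8 TPM (-0.99) and LARS1 with 21.3 ± 1.33 against 11.5 ± 0.499 TPM (-0.83).

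These counts leaned on individual hearts. The 12 synthetases summed to 815, 514 and 382 TPM in NRP + SCS 2 h, 357, 498 and 588 TPM in NRP + HOPE 24 h, and 262, 426 and 285 TPM in No NRP + HOPE 2 h. Pig 24, the heart with the highest ASNS, was the highest of the 9 for 11 of the 12, beside 13.3% of all genes, and pig 31 the lowest for 8, beside 24.8%. Without pig 24 the count of 7 became 1 and the median -0.48. It was 3 without pig 31, 4 without pig 25 and 4 without pig 34. The marker sums of pig 24 lay within the range of the other hearts except for the fibroblast sum, the lowest of the 9 at 669 TPM, and its mitochondrial share was 48.5%. Within the leukocyte list, however, 3 of 7 markers were highest in pig 24: CD68 (33.2 TPM) and the neutrophil and monocyte genes S100A8 (5.17 TPM) and S100A9 (8.02 TPM). CD14 (6.31 TPM) was instead the lowest of the 9 in that heart, and PTPRC (5.31 TPM), LYZ (2.97 TPM) and CSF1R (0.333 TPM) lay within the range of the others. S100A9 had 8.02, 4.78 and 1.79 TPM in NRP + SCS 2 h, 0.357, 0.774 and 2.66 TPM in NRP + HOPE 24 h, and 0.343, 0.199 and 0 TPM in No NRP + HOPE 2 h, and its log2 fold change in No NRP + HOPE 2 h versus NRP + SCS 2 h was -2.17, without overlap (adjusted p = 0.140, limma). It was the 1 of 6 tested leukocyte markers without overlap there, beside 14.7% of all genes, and the 6 had 3 positive and 3 negative values with a median of -0.15. S100A8 was listed at 0 in all 3 hearts without NRP and also in pig 27, which had NRP. It was above 1 TPM only in pigs 24 and 30 (1.24 TPM), so it was not tested. In the same comparison 4 of 5 fibroblast markers were positive (median 0.27), 2 of them without overlap. Their sums were 1020 to 1150 TPM against 669 to 982 TPM. Of 4 tested smooth muscle and pericyte markers 3 were positive (median 0.39), with 1 without overlap. Endothelial markers had 4 of 6 negative (median -0.38) and cardiomyocyte markers 6 of 7 (median -0.17). The part of all these markers in the synthetase levels was not tested.

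In the other comparisons of the synthetases, which share hearts with this one, fewer passed the unadjusted threshold, and the difference between comparisons was not tested. NRP + HOPE 24 h versus NRP + SCS 2 h had 11 of 12 negative, beside 64.1% of all genes, with 1 of 12 lower at an unadjusted p under 0.05 (MARS1, -0.86) beside 3.14%, 1 of 12 without overlap beside 9.82%, and a median of -0.24. NRP + HOPE 24 h versus No NRP + HOPE 2 h had 11 of 12 positive, where 53.9% of all genes were negative, with 2 of 12 higher at that threshold beside 2.78%, 3 of 12 without overlap beside 7.48%, and a median of 0.43. The synthetase with the opposite sign in No NRP + HOPE 2 h versus NRP + SCS 2 h was YARS1, named after its values were seen, which was scarce at 2.26 against 1.23 TPM. ATF4 mRNA itself had 785 ± 124 against 845 ± 39.2 TPM in that comparison, with overlap.

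**Figure D4:**
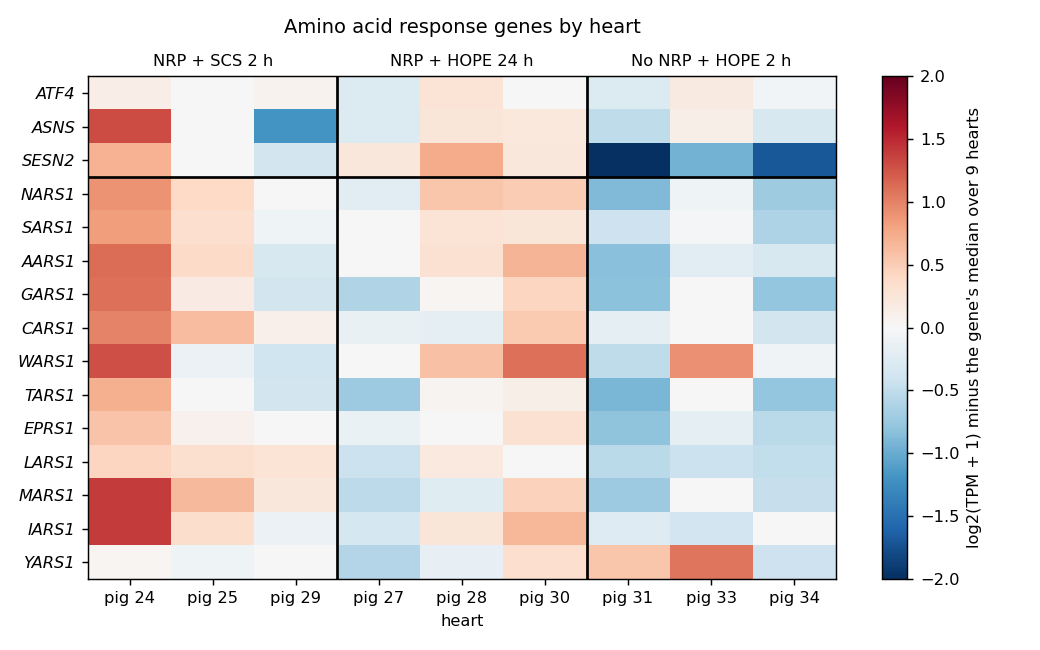
Log2(TPM + 1) minus the median of the gene over the 9 hearts (color scale, red above and blue below the median) for ATF4, ASNS, SESN2 and the 12 listed aminoacyl-tRNA synthetases, with hearts in columns by group. Pig 24 is highest for 11 of the 12 synthetases and for ASNS, SESN2 is low in the 3 hearts without NRP, and ATF4 is pale throughout.

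Of 7 further ISR regulators and stress outputs tested, 0 reached an unadjusted p under 0.05 in any comparison. Over all genes that share was 4.97%, 7.22% and 6.01% in turn. ATF3, a stress-induced relative of ATF4, had a log2 fold change of 0.91 in No NRP + HOPE 2 h versus NRP + SCS 2 h (interval -0.03 to 1.84). PMAIP1 (NOXA), which promotes apoptosis, had 0.87 in NRP + HOPE 24 h versus NRP + SCS 2 h (interval -0.03 to 1.77), where pig 28 had 56.0 TPM and pigs 27 and 30 had 18.4 and 20.2 TPM. STC2, a secreted glycoprotein, had -0.72 in No NRP + HOPE 2 h versus NRP + SCS 2 h. For each of the 3, the 95% interval included 0.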

How the data were processed

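The authors deposited TPM values, 1 column per heart, and 9 further columns matched to no sample were not used. Per the submitters' processing notes and the methods, reads were demultiplexed with bcl2fastq 2.17, trimmed with Trimmomatic 0.36, aligned to the Sus scrofa genome with STAR 2.5.2b and counted with featureCounts of Subread 1.5.2. The build and the gene lengths behind TPM are not given in the sources used here, so no coordinates are printed. Read depth is unknown, and precision rests on the spread between hearts.

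Columns were matched to groups by pig number. Log2(TPM + 1) of genes at 1 TPM or more in 3 or more hearts was fitted with limma 3.58.1 in R 4.3.3 (eBayes with trend, 1 mean per group, 9 hearts in 1 fit, two-sided, Benjamini-Hochberg over 11782 genes), because TPM does not suit the count model of DESeq2 that the authors used. The fit was tested on simulated data. Exact permutation tests compared single values (scipy 1.17.1, Python 3.11.15). Groups share no pig, so nothing was paired.

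The members and lists were chosen with earlier results of these data known. From each further list the 3 tested genes with the smallest unadjusted p over the comparisons were named, plus any called. Of the listed genes beyond the members, 11 were matched by an older name and 4 by gene identifier. For the members only the gene name was tried. Likeness to DDIT3 and 5 of 8 planned gene pairs needed members not matched by name and were not run. Alternatives were a pseudocount of 0.1, no filter, a mean of at least 5 TPM, median-of-ratios scaling, quantile normalization, removal of mitochondrially encoded genes, only the 6 hearts compared, eBayes without trend, robust eBayes, array weights (statmod 1.5.0) and leaving out each heart. Ratios between genes with their share over all pairs, rho without 2 hearts, and the alternatives for the synthetases and SESN2, were added after the data were seen.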

Additional observations from a re-analysis of the deposited data

How the results depend on the processing

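No paired analysis was possible because the groups share no pig number. No member was called under any of the 10 alternatives or with any of the 9 hearts left out (smallest adjusted p 0.324). Of 180 member log2 fold changes under the alternatives 5 changed sign, and of 162 with a heart left out 14 did. ATF4 became 0.0777 with array weights and 0.0761 with median-of-ratios scaling in NRP + HOPE 24 h versus NRP + SCS 2 h, 0.0256 with array weights in No NRP + HOPE 2 h versus NRP + SCS 2 h, and -0.0063 with quantile normalization in NRP + HOPE 24 h versus No NRP + HOPE 2 h, where XBP1 became 0.0316 with median-of-ratios scaling. With a heart left out, values with a changed sign lay in these ranges. In the first comparison ATF4 ranged from -0.21 to 0.0647 and ASNS from -0.594 to 0.654, in the second HSPA5 from -0.0521 to 0.247 and ASNS from -0.891 to 0.358, and in the third ATF4 from -0.0942 to 0.182, XBP1 from -0.237 to 0.191 and PPP1R15A from -0.182 to 0.339. The r of HSPA5 and XBP1 became -0.0173 with median-of-ratios scaling.

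Members at an unadjusted p under 0.05 became 1 with median-of-ratios scaling in the first comparison and 1 in the third, where it was 1 with quantile normalization and 1 without the mitochondrially encoded genes. With a heart left out the count was 0 to 1 in the first comparison and 0 to 2 in the third, both highest without pig 27. The members' median in the first comparison was -0.0118 to 0.40, highest without pig 24, and it was -0.343 to 0.0308 in the second and 0.0054 to 0.327 in the third. Under the other alternatives that median was 0.119 to 0.250 in the first, -0.207 to -0.0463 in the second and 0.154 to 0.208 in the third. The count of synthetases was 1 to 10 with a heart left out.

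Genes called in the first comparison (3) became 0 with a pseudocount of 0.1, 1 without filter, 6 with a mean of at least 5 TPM, 5 with quantile normalization, 13 with only the 6 hearts, 8 with robust eBayes, 60 with array weights and 0 to 12 with a heart left out. In the second (6) they became 1 without filter, 12 with quantile normalization, 19 with median-of-ratios scaling, 19 without mitochondrially encoded genes, 3 with only the 6 hearts, 11 with robust eBayes, 94 with array weights and 1 to 13 with a heart left out. In the third (6) they became 3 with a pseudocount of 0.1, 3 each with quantile normalization and median-of-ratios scaling, 2 without mitochondrially encoded genes, 14 with array weights and 0 to 16 with a heart left out. The cause was not tested. With 3 hearts per group and unknown depth, only ATF4 of the members had intervals within 1 on the log2 scale in all 3 comparisons.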

Other observations

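Pig 34 of No NRP + HOPE 2 h had the highest ATF3 of the 9 hearts (265 TPM, against 50.3 to 142 TPM in the other 8) and the highest PPP1R15A (188 TPM), singled out after the values were seen. Many genes ran high in this heart, which was the highest of the 9 for 22.2% of all genes tested. Of the 81 listed pathway genes above 0 in any heart, 13 were highest in pig 34, or 16.0%. Its HSPA5 (178 TPM) and ATF4 (774 TPM) lay within the range of the others. The marker sums of pig 34 lay within the range of the other hearts for all 5 cell types, and it was the highest heart for 3 of 6 endothelial, 2 of 7 cardiomyocyte, 0 of 7 leukocyte and 0 of 5 fibroblast markers and for the smooth muscle marker ACTA2 (88.1 TPM). Its mitochondrial share was 44.8%. The part of these in the levels was not tested, and a single heart has no replicate.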
